A study of Homo sapiens with 23 samples.

Results

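Collagens, laminins and the other proteins of the extracellular matrix were examined in thalamus organoids (ThOs), aggregates grown from human pluripotent stem cells under conditions that favour thalamic fates. The genes were chosen by symbol alone: collagen alpha chains, laminin chains, fibrillins, fibulins, fibronectin, tenascins C and R, nidogens, perlecan, agrin, the hyalectans, SPARC and its relatives, thrombospondins, matrilins, emilins, latent TGF-beta binding proteins (LTBPs), lysyl oxidases, and the metalloproteinases with their inhibitors. Of the 9497 genes listed in the expression tables, 64 matched. They comprised 4 fibrillar collagens, 9 other collagens, 12 basement membrane genes, 11 matrix glycoproteins, 3 hyalectans and tenascins, 4 LTBPs and lysyl oxidases, 19 metalloproteinases and inhibitors, and 2 antisense or opposite-strand genes (MMP24OS and THBS3-AS1), whose symbols match but which encode no matrix protein. Symbols that match the rule but are not among the 9497 were not analysed here.

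All ThOs came from the H1 human embryonic stem cell line. WT ThOs were grown from unedited H1 cells, KO ThOs from H1 cells in which c-JUN had been targeted with CRISPR/Cas9, and OE ThOs from the knockout cells carrying a doxycycline-inducible c-JUN transgene. c-JUN (gene symbol JUN) belongs to the AP-1 family of transcription factors. The study made more than 1 knockout clone, and the labels do not say which clone gave which library. Each genotype was profiled by RNA-seq at day 25 and day 30 with 2 libraries per group, 12 libraries in all, each made from 3 pooled ThOs. Nothing in the labels states that the 2 libraries of a group came from separate differentiations, so the p-values measure only the spread between these libraries, which may be technical.

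The extracellular matrix is the secreted scaffold around cells. In the developing brain a basement membrane of laminins, type IV collagen, nidogen and the proteoglycans perlecan and agrin lines the outer surface and the blood vessels, and the feet of radial glia, the neural stem cells, attach to it. The space between neural cells holds little fibrillar collagen and is instead rich in hyaluronan, in the chondroitin sulphate proteoglycans that bind it, and in tenascins. Metalloproteinases of the MMP and ADAMTS families cut these proteins, and TIMPs inhibit them.

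The tables hold a normalized expression value per gene, a whole number with the same minimum of 11, median of 106 and maximum of 9910 in every library. A library's values thus read as a gene's place in a common distribution. The read depth is unknown, no counting interval can be given, and levels are compared between libraries and never between genes. The values of the matrix genes lay between 11 and 1468. JUN itself was higher in the 4 libraries labelled KO (196 to 353) than in the 4 labelled WT (128 to 162), with 202 to 362 in the OE libraries, so every direction given for KO or OE rests on the labels. The study reported no c-JUN protein in its KO lines by western blot. It also reported no c-JUN mRNA by RT-qPCR in KO cells during neural progenitor and cerebral organoid induction, which are not these ThO samples. For OE it reported c-JUN protein induced by doxycycline in the KO lines by western blot. By ATAC-seq of ThOs at day 25 it reported chromatin at JUN as highly accessible in WT and OE and less so in KO. TCF7L2, a thalamic marker, was listed in all 12 libraries (109 to 465), and 6 of 15 thalamic markers and 11 of 11 neuronal markers were listed. The labelled tissue and cell type, embryonic stem cells, name the starting material. Matrix genes varied between replicates: 2 of the 64 differed by at least 2-fold between the WT day 25 libraries and 1 between the WT day 30 libraries, against 18 and 10 in KO and 12 and 12 in OE. Among all genes the shares at least 2-fold apart were 4.45% and 1.75% in WT, 17.4% and 21.5% in KO, and 2.15% and 3.23% in OE beside 18.8% of the matrix genes at each day in OE. These are whole-organoid RNA values, and fewer cells of a type cannot be told apart from less RNA per cell.

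**Figure D1:**
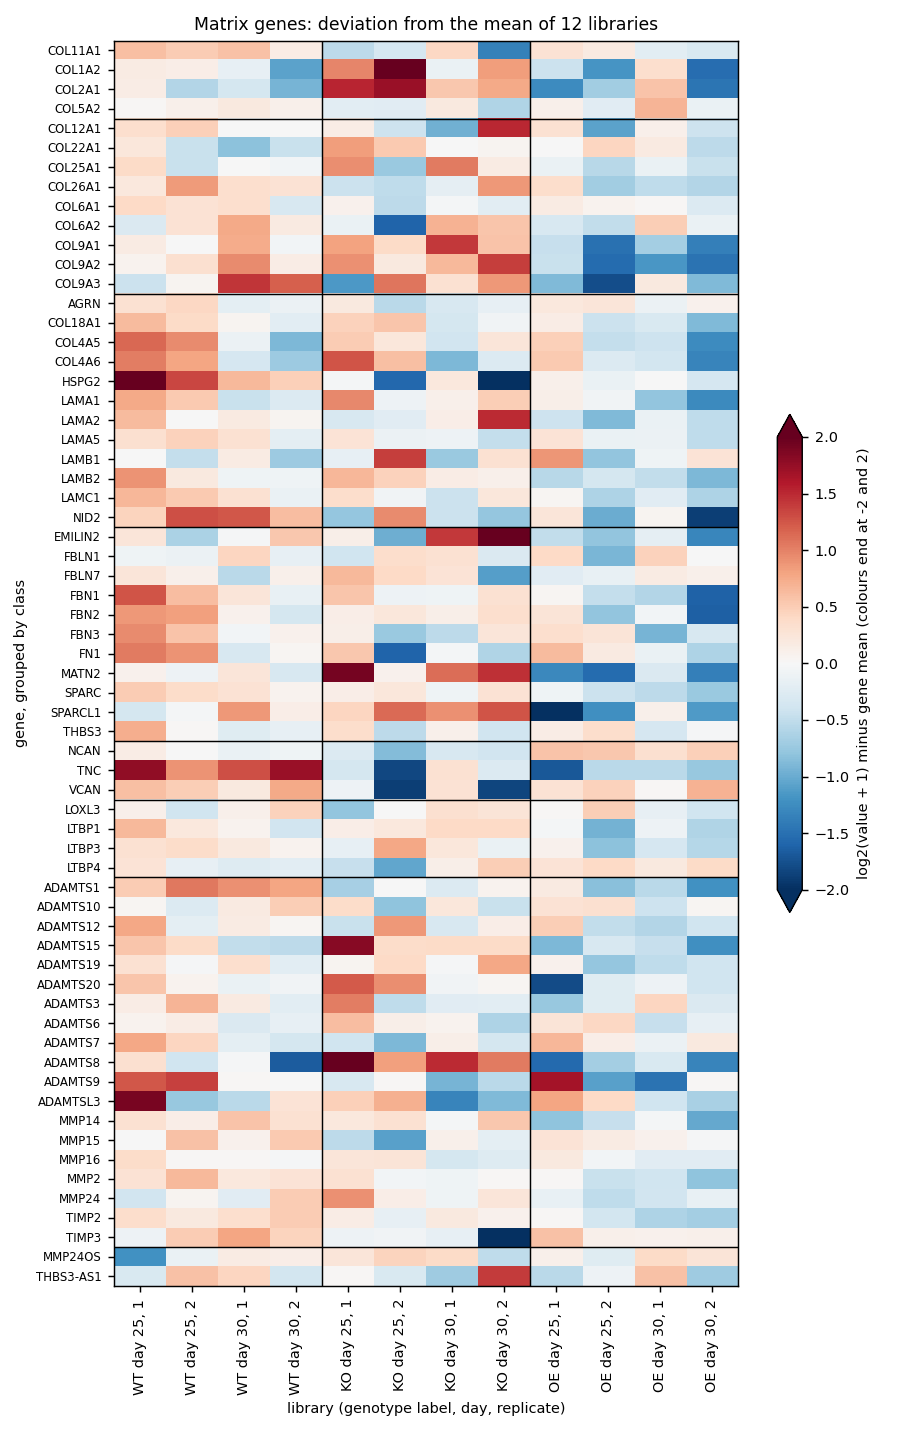
Heat map of the 64 matrix genes (rows, grouped by class) in the 12 libraries (columns). Colour gives log2(value + 1) minus the gene's mean over all 12 libraries, with red above and blue below that mean and the colours ending at -2 and 2. The right-hand block of OE libraries is mostly blue, COL2A1, ADAMTS8, MATN2 and SPARCL1 are red in KO, and TNC is deepest red in the 4 WT libraries.

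Across the class, matrix gene expression was lowest in OE. The summed value of the 64 genes was 14371 and 13022 in the WT libraries at day 25 and 12028 and 10531 at day 30. In KO the sums were 13250 and 12224 at day 25 and 11156 and 11877 at day 30, and in OE they were 10785 and 8586 at day 25 and 9228 and 7794 at day 30. At either day both OE sums were below both WT sums and below both KO sums, while the KO sums overlapped those of WT at day 25 and at day 30. Such sums give most weight to the genes with high values, and their unit is unknown. Gene by gene, 55 of the 64 were lower in OE than in WT over both days, with a median log2 fold change of -0.48, where the median of all 9497 genes was 0.00. For OE against KO, 45 were lower (median -0.35, all genes 0.01), and for KO against WT 41 were lower (median -0.13, all genes -0.02). These 3 comparisons share libraries, so their medians are not independent of each other.

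Tests were made with limma on log2(value + 1) over all genes, with the spread of a gene shared by all 6 groups. The replicates were not equally spread. Over all genes the SD of their log2 differences was 0.766 and 0.835 in KO and 0.361 to 0.465 in WT and OE. Among the matrix genes it was 0.884 and 0.887 in KO, 0.703 and 0.638 in OE, and 0.566 and 0.458 in WT. The SE and p of comparisons with KO may therefore be too small, and those of OE against WT too large. The gap between KO and OE was narrower for matrix genes than for all genes. At an unadjusted p under 0.05 and any fold, 26 matrix genes (40.6%) were lower in OE than in WT, where 4.69% of all genes passed, and 2 were higher, where 3.53% passed. OE against KO gave 25 lower (39.1%, 10.7% of all genes) and 6 higher (11.5% of all genes), and KO against WT gave 12 lower (8.16% of all genes) and 7 higher (7.01% of all genes). A gene is called below where the p adjusted over all genes was under 0.05 and the change was at least 2-fold. By that rule the matrix genes called numbered 7 of 64 for OE against KO over both days, where 2.22% of all genes were called, 1 for OE against WT over both days (0.158% of all genes), and 0 for KO against WT with the days pooled (0.0211% of all genes). Within a day, OE against KO gave 1 call at day 25 (0.274% of all genes) and 0 at day 30 (0.0842%). KO against WT gave 0 at day 25 (0.0105%) and 0 at day 30 (0%). Day 30 against day 25 over all genotypes gave 0 (0%). A looser rule, an unadjusted p under 0.05 with a 2-fold change, gives a second count and is called the unadjusted rule.

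**Figure D2:**
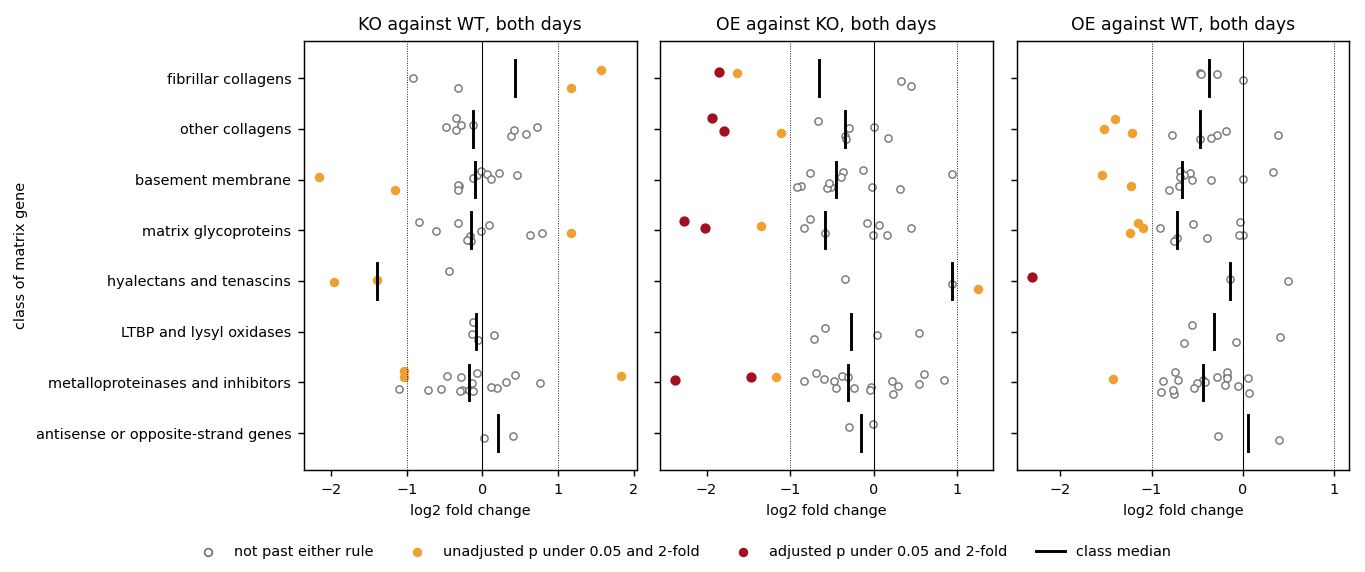
Log2 fold changes of the 64 matrix genes over both days, by class, in the 3 pairwise comparisons of genotypes named above the panels. Each point is a gene, the black bar is the class median, dotted lines mark 2-fold, orange points passed the unadjusted rule and dark red points the adjusted rule. The 7 genes called for OE against KO all lie to the left of zero, and in OE against WT most points of every protein-coding class do.

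The comparison of OE with KO asks what differed in knockout cells given the inducible c-JUN transgene. The study induced c-JUN by adding doxycycline to the medium, and does not state whether KO or WT cultures received it. Effects of c-JUN, the transfected plasmid and the drug therefore cannot be told apart. The JUN values of OE (202 to 362) and KO (196 to 353) overlapped. All 7 matrix genes called fell in OE. They were the cartilage-type collagens COL2A1, COL9A1 and COL9A2, the glycoproteins SPARCL1 and MATN2, and the proteases ADAMTS8 and ADAMTS15. By the unadjusted rule 11 matrix genes were lower (2.63% of all genes) and 1, VCAN, was higher (2.35% of all genes). The 4 OE libraries lay wholly below the 4 KO libraries in 11 genes (4.51% of all genes) and wholly above them in 2, NCAN and TIMP3 (5.17% of all genes).

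COL2A1 encodes the chain of type II collagen, the main fibrillar collagen of cartilage, which is also made by early neuroepithelium. The gene (ENSG00000139219) lies on GRCh38 chromosome 12 at chr12:47972967-48004554. Its values were 217 and 130 in WT on day 25, 152 and 102 in WT on day 30, 564 and 650 in KO on day 25, 285 and 331 in KO on day 30, 81 and 120 in OE on day 25, and 290 and 70 in OE on day 30. All 4 KO libraries stood above all 4 WT libraries, and 3 of the 4 OE libraries stood at or below 120, but OE day 30 replicate 1, at 290, lay above one of the KO day 30 libraries. The log2 fold change of OE against KO was -1.85 ± 0.37 (SE; limma adjusted p = 0.029) and that of KO against WT was 1.57 ± 0.37 (limma adjusted p = 0.176). COL2A1 is among the genes that the study picked out from these libraries as raised in KO, so its direction is not independent evidence. The study compared day 25 alone, at p under 0.05 and at least 2-fold. At day 25 alone the log2 fold change of KO against WT was 1.84 by limma, without a call. COL1A2, a chain of type I collagen, the fibrillar collagen of connective tissue, had values of 198, 195, 159 and 84 in WT, 352, 734, 162 and 318 in KO, and 132, 78, 224 and 61 in OE (day 25 pair first). It followed the order of COL2A1 with wider replicate gaps, and neither change passed the adjusted rule (log2 fold change 1.17 ± 0.41 for KO against WT, limma adjusted p = 0.241, and -1.63 ± 0.41 for OE against KO, limma adjusted p = 0.0578). The other 2 fibrillar collagens, COL5A2 and COL11A1, did not share that order: COL11A1, the partner of type II collagen in cartilage fibrils, was lower in KO than in WT (log2 fold change -0.91) and higher in OE than in KO (0.44), and neither was called.

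Type IX collagen sits on the surface of type II collagen fibrils and is assembled from the products of COL9A1, COL9A2 and COL9A3. COL9A1 had 65 and 58 in WT on day 25, 98 and 56 in WT on day 30, 102 and 76 in KO on day 25, 156 and 87 in KO on day 30, 42 and 20 in OE on day 25, and 36 and 22 in OE on day 30. In the same order of days COL9A2 had 240, 285, 438 and 251 in WT, 429, 262, 357 and 592 in KO, and 167, 78, 101 and 81 in OE. For both genes the OE libraries lay below every KO and every WT library. The log2 fold changes of OE against KO were -1.79 ± 0.32 for COL9A1 (limma adjusted p = 0.0196) and -1.94 ± 0.29 for COL9A2 (limma adjusted p = 0.00983). Against WT they were -1.21 ± 0.32 and -1.53 ± 0.29, with limma adjusted p of 0.226 and 0.0861. COL9A3 stood at 32, 45, 118 and 100 in WT, 19, 92, 54 and 80 in KO, and 23, 12, 50 and 23 in OE (day 25 pair first). Its OE values were lower on average than in WT (log2 fold change -1.39 ± 0.45, limma adjusted p = 0.394), with overlap between the groups. The remaining collagens, COL6A1, COL6A2, COL12A1, COL22A1, COL25A1 and COL26A1, had log2 fold changes between -0.67 and 0.17 for OE against KO and none was called.

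SPARCL1 (hevin) is a secreted glycoprotein of the SPARC family made by glia and some neurons, known for its part in synapse formation. Its values were 434 and 536 in WT on day 25, 1008 and 606 in WT on day 30, 746 and 1210 in KO on day 25, 1042 and 1330 in KO on day 30, 130 and 237 in OE on day 25, and 592 and 251 in OE on day 30. Every OE library was below every KO library, and at each day both OE libraries were below both WT libraries. Its log2 fold change of OE against KO over both days was -2.02 ± 0.30 (limma adjusted p = 0.00982), and it was the 1 matrix gene called within a single day, day 25 (-2.43 ± 0.42, limma adjusted p = 0.0439). SPARC (osteonectin), its collagen-binding relative, had a smaller difference of the same sign: 972, 767, 722 and 619 in OE against 1132, 1217, 973 and 1260 in KO and 1468, 1332, 1260 and 1084 in WT. The 4 OE values of SPARC lay below all others, and its log2 fold changes of -0.58 against KO (limma adjusted p = 0.0379) and -0.75 against WT (limma adjusted p = 0.0495) passed the adjusted p but not the 2-fold limit. SPARC, LAMB2 and NCAN were named after their values were seen, as the 3 genes that passed the adjusted p without the fold for OE against KO.

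MATN2 encodes matrilin-2, an adaptor that links collagens and other matrix proteins. It had 48 and 42 in WT on day 25, 54 and 36 in WT on day 30, 174 and 48 in KO on day 25, 100 and 127 in KO on day 30, 18 and 15 in OE on day 25, and 37 and 17 in OE on day 30. OE and KO did not overlap, while KO day 25 replicate 2 lay within the WT range. The log2 fold change of OE against KO was -2.26 ± 0.39 (limma adjusted p = 0.0169). The other glycoproteins FBN1, FBN2 and FBN3 (fibrillins), FBLN1 and FBLN7 (fibulins), FN1 (fibronectin), EMILIN2 and THBS3 (a thrombospondin) ranged in log2 fold change from -1.35 (EMILIN2, an elastic fibre protein) to 0.45 (FN1) for OE against KO, and none was called.

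ADAMTS8 and ADAMTS15 encode secreted metalloproteinases; both can cut hyalectans. The genes are neighbours on GRCh38 chromosome 11, ADAMTS8 at chr11:130404923-130428609 on the minus strand and ADAMTS15 at chr11:130448645-130476645 on the plus strand, with 20035 bases between them. ADAMTS8 had 106 and 64, then 83 and 26 in WT, 405 and 150, then 240 and 174 in KO, and 28 and 52, then 68 and 33 in OE, day 25 before day 30. ADAMTS15 had 133 and 118, then 64 and 62 in WT, 320 and 117, then 118 and 118 in KO, and 48 and 72, then 65 and 38 in OE. Both were below every KO library in all 4 OE libraries, and both were highest in KO day 25 replicate 1. Their log2 fold changes of OE against KO were -2.37 ± 0.43 (limma adjusted p = 0.0207) and -1.47 ± 0.31 (limma adjusted p = 0.0327). For KO against WT they were 1.84 ± 0.43 and 0.76 ± 0.31, neither called (limma adjusted p = 0.176 and 0.281), and the WT and KO libraries did not overlap for ADAMTS8. Of the other 17 metalloproteinases and inhibitors none was called for OE against KO.

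**Figure D3:**
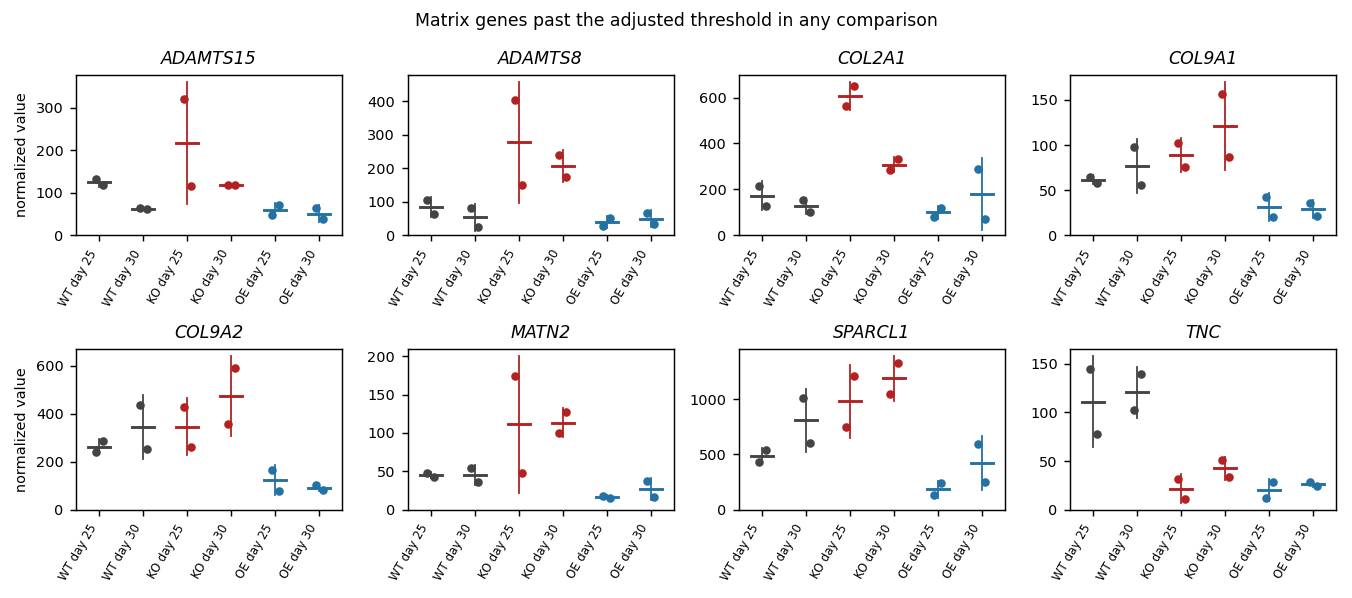
Normalized values by library for the 8 matrix genes past the adjusted threshold in any comparison. Points are the 2 libraries of a group, horizontal bars the mean and vertical bars 1 SD, with the vertical axis starting at 0. In all 8 panels the OE means lie below the KO means, by little for TNC at day 25, and TNC shows KO and OE both below WT.

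How firmly the calls for OE against KO stand depended on single libraries. Leaving out KO day 30 replicate 1 gave 14 calls (21.9% of the matrix genes), but then 10.2% of all genes were called. Leaving out KO day 30 replicate 2 gave 3 (0.653% of all genes), leaving out OE day 25 replicate 1 or 2 gave 3 (0.442% and 0.421%), and leaving out OE day 30 replicate 2 gave 1, SPARCL1 (0.274%). The day 25 call of SPARCL1 was lost without either OE day 25 library and without KO day 25 replicate 2, where 2 other genes, MATN2 and ADAMTS15, were called (0.79% of all genes), and 5 genes were called without KO day 25 replicate 1 (3.05% of all genes). At day 30 the count was 11 without KO day 30 replicate 1, which is 17.2% of the matrix genes beside 15.2% of all genes. With library weights or with only the 8 libraries compared, 0 of the 7 passed, and 41 and 11 of all 9497 genes were then called. The weights let the spread differ between groups, at 0.321 to 0.404 for KO libraries and 1.16 to 2.03 for the others. They were set on all genes, among which OE replicates varied less than among matrix genes. The 7 calls thus depend on the spread being shared. The direction of all 7 was the same in every alternative. For all but COL2A1 the OE libraries lay wholly below the KO libraries, so leaving out 1 library could not have turned it.

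Most listed roof plate markers, both listed keratins and CLDN1 were lower in OE than in KO, as these genes were. Some other roof plate and choroid plexus markers were not. The roof plate is the dorsal midline of the neural tube, a source of WNT and BMP signals. Of 11 markers 10 were listed, 8 were higher in KO than in WT and 7 lower in OE than in KO, WNT3A being the one not listed, with 3 called lower (LMX1B, MSX1 and WNT1) and 2 called higher (RSPO2 and WNT8B) for OE against KO. Their summed value was 1328 to 2231 in WT, 2163 to 3347 in KO and 1414 to 2943 in OE. Of the mesenchyme and meninges markers 2 of 12 were listed, PDGFRA and PDGFRB, with sums of 199 to 304 in WT, 147 to 386 in KO and 116 to 209 in OE, and neither was called. The highest mesenchyme sum, 386, was in KO day 25 replicate 2, which also had the highest COL1A2 and COL2A1. Among non-collagen cartilage markers 2 of 7 were listed, SOX9 and SOX5, with sums of 321 to 442 in WT, 296 to 438 in KO and 300 to 412 in OE, and neither was called. Of 7 surface epithelium markers 2 were listed, KRT8 and KRT18, keratins of simple epithelia. Both were higher in KO than in WT without a call (log2 fold changes 0.44 and 0.45) and both were called lower in OE than in KO (-1.33, limma adjusted p = 0.0405, and -1.05, limma adjusted p = 0.0437), with sums of 233 to 346 in WT, 312 to 616 in KO and 128 to 326 in OE. Of 10 choroid plexus markers 6 were listed, with sums of 2076 to 4941 in WT, 1655 to 5173 in KO and 1900 to 4576 in OE. One of the 6 was called, the tight junction gene CLDN1, lower in OE than in KO (log2 fold change -3.20, limma adjusted p = 0.00212). It had 460, 232, 372 and 438 in KO, 38, 32, 82 and 22 in OE and 146 to 172 in WT, with no overlap between genotypes. The other 5, TTR, CLIC6, FOLR1, OTX2 and KCNJ13, had log2 fold changes between -0.73 and 0.86 for OE against KO. Of the neural crest markers 1 of 7 was listed (TFAP2B) and of the endothelial markers 1 of 8 (CLDN5), and neither was called. Their part in the results was not tested, and markers that were not listed were not analysed here.

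The comparison of KO with WT asks which genes differ between the libraries so labelled, and no matrix gene was called by limma. By the unadjusted rule 4 matrix genes were higher in KO over both days (ADAMTS8, COL2A1, MATN2 and COL1A2, 1.07% of all genes) and 6 were lower (HSPG2, TNC, VCAN, NID2, ADAMTS1 and TIMP3, 1.01% of all genes). The 4 KO libraries were wholly above the 4 WT libraries in 2 genes, COL2A1 and ADAMTS8 (2.74% of all genes), and wholly below in 5, HSPG2, TNC, NCAN, ADAMTS1 and TIMP2 (3.14% of all genes). At day 25 alone 12 matrix genes passed the unadjusted rule, 4 higher and 8 lower (5.31% of all genes), and at day 30 alone 8 passed, 4 in each direction (2.94% of all genes). The day 25 set included FN1, fibronectin, at 426 and 384 in WT and 299 and 67 in KO, with the difference carried mainly by 1 KO library. Without KO day 25 replicate 1 FN1 was the 1 matrix gene called at day 25 (0.358% of all genes). Without KO day 30 replicate 1, 7 matrix genes were called over both days (HSPG2, TNC, VCAN, TIMP3 and COL11A1 lower, COL2A1 and ADAMTS8 higher), as were 5.66% of all genes. At day 30 the same omission gave 5 calls, 7.81% of the matrix genes beside 11.4% of all genes. The 10 genes of both days were 6 without KO day 30 replicate 2 (1.15% of all genes), and the 8 of day 30 were 2 without KO day 30 replicate 2 (0.937%), 5 without WT day 30 replicate 1 (2.95%) and 2 without WT day 30 replicate 2 (1.18%). In a fit without KO day 30 replicate 1 the lone KO day 30 library is assumed to vary like the other groups.

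HSPG2 encodes perlecan, the large heparan sulphate proteoglycan of basement membranes, and is one of the genes that the study listed from these libraries as lowered in KO. It had 467 and 285 in WT on day 25, 176 and 156 in WT on day 30, 109 and 37 in KO on day 25, 130 and 16 in KO on day 30, 120 and 102 in OE on day 25, and 111 and 88 in OE on day 30. All 8 KO and OE libraries were below all 4 WT libraries, the second KO library was at 0.339 of the first at day 25 and at 0.123 of it at day 30, and the OE values were close together. The log2 fold change of KO against WT was -2.16 ± 0.53 (limma adjusted p = 0.176), that of OE against KO 0.93 ± 0.53 (limma adjusted p = 0.325) and that of OE against WT -1.23 ± 0.53 (limma adjusted p = 0.567). At day 25 alone, the day of the study's comparison, that of KO against WT was -2.50, without a call. NID2, nidogen-2, which bridges laminin and type IV collagen, had 94, 170, 164 and 106 in WT, 40, 134, 51 and 40 in KO, and 82, 34, 72 and 18 in OE (day 25 pair first). The OE libraries were all below the WT libraries, and KO overlapped WT through 1 library (log2 fold change -1.15 ± 0.49 for KO and -1.54 ± 0.49 for OE against WT, limma adjusted p = 0.302 and 0.375).

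TNC encodes tenascin-C, an anti-adhesive glycoprotein of neural stem cell niches. Its values were 144 and 78 in WT on day 25, 102 and 139 in WT on day 30, 32 and 11 in KO on day 25, 51 and 34 in KO on day 30, 12 and 28 in OE on day 25, and 28 and 24 in OE on day 30. Every KO and OE library lay below every WT library. The log2 fold change was -1.96 ± 0.38 for KO against WT (limma adjusted p = 0.13) and -2.31 ± 0.38 for OE against WT (limma adjusted p = 0.0467), the 1 call of that comparison. From KO to OE the log2 fold change was -0.35 ± 0.38 (limma adjusted p = 0.618), with overlapping libraries.

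VCAN encodes versican and NCAN neurocan, chondroitin sulphate proteoglycans of the hyalectan family that bind hyaluronan. VCAN had 1014 and 947 in WT on day 25, 767 and 1130 in WT on day 30, 628 and 182 in KO on day 25, 823 and 187 in KO on day 30, 823 and 926 in OE on day 25, and 678 and 1084 in OE on day 30. The KO libraries at 182 and 187 carried the difference, and of the other 2 one lay within the WT range and one below it. Its log2 fold changes were -1.39 ± 0.45 for KO against WT and 1.24 ± 0.45 for OE against KO, with limma adjusted p of 0.217 and 0.141. NCAN had 182, 163, 150 and 155 in WT, 136, 90, 132 and 126 in KO, and 244, 239, 206 and 228 in OE (day 25 pair first). The 3 genotypes did not overlap, with KO lowest and OE highest. Its rise of 0.93 ± 0.17 on the log2 scale from KO to OE had a limma adjusted p of 0.0196 and was just under 2-fold.

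Most progenitor markers and hypoxia-response genes shared the average direction of VCAN, without following it library by library. In the KO day 25 libraries the hypoxia sums were 1193 and 1059, where VCAN was 628 and 182. Of 11 radial glia and progenitor markers 8 were listed, all 8 lower in KO than in WT and none called. Their sums were 5700 to 6040 in 3 WT libraries, 3847 to 6005 in KO and 5783 to 6430 in OE, and 12500 in WT day 25 replicate 1, where VIM alone was 9910. From KO to OE 7 of the 8 were higher and 1, SOX2, was called (log2 fold change 1.27, limma adjusted p = 0.0429). PTPRZ1, a receptor for chondroitin sulphate and tenascins in the matrix receptor list, had 462, 148, 1261 and 174 in KO against 722 to 1608 in WT, low in the same 2 KO libraries as VCAN. Of 12 hypoxia-response genes 8 were listed, all 8 lower in KO than in WT, with sums of 1193, 1059, 3646 and 909 in the KO libraries, 1380 to 3104 in WT and 2094 to 3006 in OE. From KO to OE all 8 were higher and 1, PDK1, was called (log2 fold change 1.20, limma adjusted p = 0.0392). Their part in the matrix results was not tested.

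**Figure D4:**
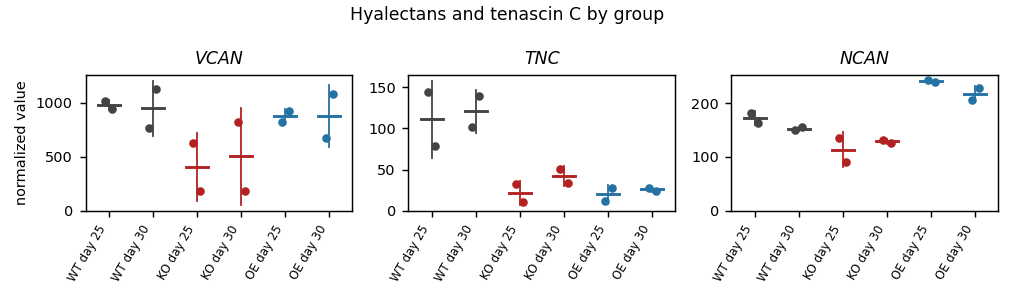
Normalized values of VCAN, TNC and NCAN by library, with 2 points per group, the mean as a horizontal bar and 1 SD as a vertical bar. VCAN is low in 2 of the 4 KO libraries, TNC is highest in the 4 WT libraries, and NCAN is separated by genotype with OE highest.

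ADAMTS1, a protease that cuts versican, had 128, 188, 170 and 156 in WT, 56, 89, 74 and 94 in KO, and 102, 50, 61 and 38 in OE (day 25 pair first). The KO and the OE libraries were all below the WT libraries, with log2 fold changes of -1.04 ± 0.28 and -1.42 ± 0.28 (limma adjusted p = 0.189 and 0.1). TIMP3, an inhibitor that binds the matrix, was at 82 and 126, then 152 and 120 in WT and at 82 and 84, then 78 and 19 in KO, with the lowest value in KO day 30 replicate 2.

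The comparison of OE with WT shows how far the OE organoids differed from unedited ones, with the same limit on c-JUN, plasmid and doxycycline. By the unadjusted rule 10 matrix genes were lower in OE (0.716% of all genes): TNC, NID2, COL9A2, ADAMTS1, COL9A3, SPARCL1, HSPG2, COL9A1, FBN1 and MATN2. None was higher, where 0.474% of all genes were. The OE libraries lay wholly below the WT libraries in 12 genes (4.34% of all genes), which were HSPG2, LAMA2, LAMB2, NID2, TNC, SPARC, ADAMTS1, MMP2, MMP14, TIMP2, COL9A1 and COL9A2, and wholly above in 1, NCAN (4.13% of all genes). By class, 11 of 12 basement membrane genes were lower in OE than in WT (median log2 fold change -0.67), as were 10 of 11 matrix glycoproteins (-0.72), 17 of 19 metalloproteinases and inhibitors (-0.44), 8 of 9 other collagens (-0.47), 3 of 4 fibrillar collagens (-0.37), 3 of 4 LTBPs and lysyl oxidases (-0.32) and 2 of 3 hyalectans and tenascins (-0.14). The single call, TNC, was lost when any 1 of the 8 libraries was left out. With library weights 8 matrix genes were called lower (0.958% of all genes), and with only these 8 libraries 4 were (TNC, COL9A2, ADAMTS1 and HSPG2, 0.716% of all genes). The weights were set on all genes and may be too high for OE, whose replicates varied more in matrix genes.

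Most basement membrane genes were lower at day 30, and none was called. Of the 12, 11 were lower at day 30 than at day 25 over all genotypes (median log2 fold change -0.41), 11 of 12 in WT, 11 of 12 in KO and 10 of 12 in OE, while other collagens had a median of 0.15. The whole set of 64 had 42 lower (median -0.24, all genes 0.01). By the unadjusted rule 2 matrix genes were lower at day 30, COL4A6 and ADAMTSL3 (0.253% of all genes), and 1 was higher, COL9A3 (0.158% of all genes), and none was called. COL4A5 and COL4A6 encode the alpha5 and alpha6 chains of type IV collagen, the network-forming collagen of basement membranes. COL4A6 had 392 and 332 in WT on day 25 and 152 and 115 at day 30, 458 and 291 in KO on day 25 and 102 and 158 at day 30, and 274 and 158 in OE on day 25 and 148 and 76 at day 30. COL4A5 had 572 and 496, then 236 and 138 in WT, 364 and 300, then 196 and 304 in KO, and 359 and 184, then 192 and 107 in OE. COL4A6 was lower at day 30 than at day 25 in every genotype with no overlap, and COL4A5 without overlap in WT alone. The log2 fold changes over all genotypes were -1.31 ± 0.22 for COL4A6 (limma adjusted p = 0.142) and -0.94 ± 0.23 for COL4A5 (limma adjusted p = 0.221). COL4A6 was called without KO day 30 replicate 1 (log2 fold change -1.20; 0.358% of all genes called), and ADAMTSL3 without WT day 25 replicate 2 (-1.61; 0.158%). The 3 genes past the unadjusted rule were 1 without WT day 25 replicate 1 (0.179% of all genes) and 5 without OE day 30 replicate 2 (0.495%).

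**Figure D5:**
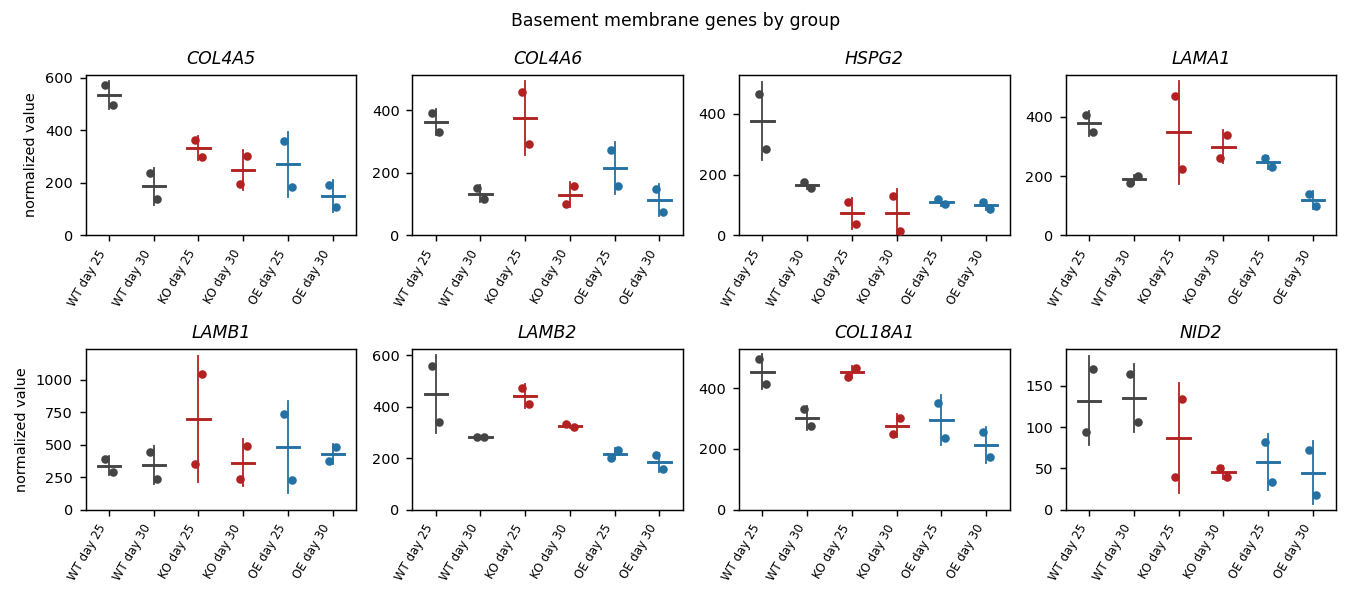
Normalized values of 8 basement membrane genes by library, with 2 points per group, the mean as a horizontal bar and 1 SD as a vertical bar cut at the axis. COL4A6 is lower at day 30 in each genotype, HSPG2 is below WT in all KO and OE libraries, and LAMB2 is lowest in OE.

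The 2 genes are read in opposite directions on the X chromosome, COL4A6 on the minus strand (gene at chrX:108155607-108439497) and COL4A5 on the plus strand (gene at chrX:108439838-108697545). The RefSeq start sites of the windows shown are 380 bases apart. The listed COL4A6 gene begins slightly upstream of the start site of its window. The RefSeq promoter windows, which run from 250 bases before to 50 after a start site on GRCh38.p14, therefore overlap, and they are shown because the pair differed in the same direction between the days. The windows are chrX:108439409-108439708 on the minus strand for COL4A6 and chrX:108439588-108439887 on the plus strand for COL4A5, each written 5′ to 3′ on its own strand, with the 121 bases that both hold in capitals. COL4A6 has a second window in the table that is not shown.
COL4A6: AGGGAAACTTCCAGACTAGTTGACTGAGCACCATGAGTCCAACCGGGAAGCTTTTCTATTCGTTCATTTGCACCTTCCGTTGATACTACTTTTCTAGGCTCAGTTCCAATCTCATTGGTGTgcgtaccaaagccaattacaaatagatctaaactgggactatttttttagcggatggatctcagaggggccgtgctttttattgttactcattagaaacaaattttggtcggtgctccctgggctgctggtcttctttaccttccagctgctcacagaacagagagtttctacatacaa
COL4A5: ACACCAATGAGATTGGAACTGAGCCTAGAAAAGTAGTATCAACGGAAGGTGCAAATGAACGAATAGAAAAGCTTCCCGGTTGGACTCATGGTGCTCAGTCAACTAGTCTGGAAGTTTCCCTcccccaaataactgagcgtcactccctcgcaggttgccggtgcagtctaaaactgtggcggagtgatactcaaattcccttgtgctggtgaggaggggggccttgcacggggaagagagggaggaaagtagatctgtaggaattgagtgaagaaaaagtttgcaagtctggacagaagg

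Laminins are the cross-shaped heterotrimers that organise basement membranes. LAMA1, LAMA2, LAMA5, LAMB1, LAMB2 and LAMC1 had log2 fold changes between -0.33 and 0.46 for KO against WT and between -0.92 and -0.02 for OE against KO. LAMB2 had 558, 342, 282 and 281 in WT, 475, 410, 332 and 320 in KO, and 202, 234, 211 and 159 in OE (day 25 pair first). Its OE libraries were below all others, and the change from KO of -0.92 ± 0.18 on the log2 scale had a limma adjusted p of 0.0242 without reaching 2-fold. LAMB1 showed the widest replicate gaps of the laminins, at 356 and 1044 in KO on day 25 and 734 and 230 in OE on day 25, and AGRN, agrin, and COL18A1, the source of endostatin, were not called.

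ADAMTSL3, a member of the ADAMTS-like family without protease activity, was at 156 and 24 in WT on day 25 and 28 and 50 at day 30, 58 and 68 in KO on day 25 and 16 and 22 at day 30, and 72 and 55 in OE on day 25 and 31 and 26 at day 30. KO and OE were lower at day 30 without overlap, and the WT day 25 pair was more than 2-fold apart. Whether the KO effect itself differed between the days was tested as an interaction. No matrix gene passed at an adjusted p under 0.05 (0% of all genes), and 3 had an unadjusted p under 0.05 (5.63% of all genes), namely LTBP4, ADAMTS7 and EMILIN2, each with a KO effect more positive at day 30. LTBP4, which tethers latent TGF-beta to fibrillin microfibrils, was at 240 and 178 in WT and 145 and 96 in KO on day 25, and at 166 and 172 in WT and 216 and 280 in KO on day 30. KO was thus below WT at day 25 and above it at day 30, with a limma adjusted p of 0.802 for the difference. Without KO day 30 replicate 1 one matrix gene, TIMP3, passed the interaction test, as did 1.99% of all genes.

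Genes that make, modify or bind the matrix were counted from lists. Of 28 genes of collagen biosynthesis and folding 18 were listed and none was called, with a median log2 fold change of -0.24 for OE against KO and -0.28 for OE against WT. Of 30 matrix receptors 18 were listed and 2 were called, both lower in OE than in KO: DDR2, a collagen receptor kinase (-1.52, limma adjusted p = 0.0441), and SDC2, syndecan-2 (-1.01, limma adjusted p = 0.0212). DDR2 had 86, 129, 74 and 90 in KO and 32, 18, 66 and 26 in OE, without overlap. Of 35 genes of glycosaminoglycan synthesis 24 were listed and 2 were called for OE against KO. CHPF, which polymerises chondroitin, fell by 2.01 on the log2 scale (592, 336, 442 and 426 in KO, 114, 66, 160 and 116 in OE, limma adjusted p = 0.00212), and HS6ST1, a heparan sulphate 6-O-sulphotransferase, rose by 1.22 (149, 166, 276 and 206 in KO, 445, 442, 536 and 397 in OE, limma adjusted p = 0.00745). The 3 listed genes of the hyaluronan and link protein list (of 12) were not called. For KO against WT and OE against WT no gene of these 4 lists was called.

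The promoters were searched for the AP-1 motif TGANTCA and for the cyclic AMP response element TGACGTCA, which JUN-ATF dimers can bind, on both strands, each motif being its own reverse complement and neither containing the other. RefSeq held 58 windows of 300 bases for 47 of the 64 genes. The AP-1 motif was present in 2 of the 58 (3.45%), against 4.86% of the windows of all listed genes and 7.71% of all windows. TGACGTCA was present in 4 of the 58 (6.9%), those of FN1, LTBP1, ADAMTS6 and THBS3-AS1, against 2.98% and 1.85%. The 2 windows with the AP-1 motif belong to ADAMTS12 (chr5:33891941-33892240, minus strand), where it begins 84 bases before the start site, and EMILIN2 (chr18:2846756-2847055, plus strand), where it begins 217 bases before it. They are shown with the match in capitals. The usual AP-1 site reads TGAGTCA or TGACTCA. The match is TGAGTCA in EMILIN2 and TGAATCA in ADAMTS12, so the latter matches only because any middle base was allowed.
ADAMTS12: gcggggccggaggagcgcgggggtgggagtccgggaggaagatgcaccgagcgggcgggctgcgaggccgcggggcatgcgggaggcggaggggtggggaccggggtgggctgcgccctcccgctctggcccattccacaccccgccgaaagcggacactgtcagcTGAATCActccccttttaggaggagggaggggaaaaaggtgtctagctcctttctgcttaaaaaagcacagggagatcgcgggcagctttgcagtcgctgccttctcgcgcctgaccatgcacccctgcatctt
EMILIN2: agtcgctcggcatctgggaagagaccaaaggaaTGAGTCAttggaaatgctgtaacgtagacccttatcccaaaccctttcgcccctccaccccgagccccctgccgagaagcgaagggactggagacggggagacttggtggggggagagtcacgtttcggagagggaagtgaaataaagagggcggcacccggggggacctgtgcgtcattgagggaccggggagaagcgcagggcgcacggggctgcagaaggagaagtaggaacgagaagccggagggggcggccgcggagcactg
EMILIN2 had 34, 18, 28 and 42 in WT, 31, 14, 78 and 123 in KO, and 20, 16, 25 and 11 in OE (day 25 pair first), high only in KO on day 30. ADAMTS12 had 150, 76, 98 and 90 in WT, 64, 160, 70 and 96 in KO, and 124, 62, 58 and 66 in OE, with overlap between all genotypes. Neither was called in any comparison. The windows of the called genes COL9A1, COL9A2, SPARCL1 and TNC, and of HSPG2, hold neither motif, which says only that these letters are not in these windows. COL2A1, MATN2, ADAMTS8 and ADAMTS15 are among the 17 genes with no window in the table.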

How the data were processed

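RNA-seq tables of 12 ThO libraries (6 groups of 2) were used. Total RNA was depleted of ribosomal RNA and sequenced as stranded paired-end libraries. The authors deposited 1 value per gene and library, a rounded normalized expression score. The submitters' processing notes name bcl2fastq, RSEM, Bowtie2 and hg19 without their roles, and the normalization is not given in the sources used here. Gene positions fit GRCh38, since each of the 9386 symbols found in RefSeq GRCh38.p14 lies at an overlapping place there. The lowest value in every library is 11, and whether low genes were removed is not given in the sources used here. The values of all libraries share one distribution, so a matrix gene can move because other genes do, and depth is unknown.

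A limma (3.58.1, R 4.3.3) model of log2(value + 1) was fitted with 1 mean per group over 12 libraries (6 residual and 5.29 prior degrees of freedom) and an intensity trend, and tested on simulated data. P-values are two-sided and Benjamini-Hochberg adjusted over all genes within a comparison. A filter for values of 1 or more in 2 or more libraries removed 0 genes. Alternatives were pseudocounts of 0.1 and 5, no filter, a mean of at least 50, median centring, quantile normalization, a replicate block, library weights, only the libraries compared, and each library left out. Named with values in every library were COL2A1, SPARCL1, HSPG2, all called genes and, where days or genotypes were pooled, the 5 largest changes per direction past the unadjusted rule. Any further gene was named with its values already known. The matrix genes and lists were chosen with earlier results of these data known. ATAC-seq and CUT&Tag samples were not analysed here.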

Additional observations from a re-analysis of the deposited data

How the results depend on the processing

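Of 481 alternative values for 28 changes of named matrix genes, 0 reversed, 50 lost and 14 gained a call. No filter and median centring could only repeat the main fit, since the filter removed 0 genes and every library has a median of 106. Quantile normalization could change little, since the libraries already share one distribution. The 481 values include these fits, which are therefore no check. Pseudocounts and quantile normalization left every count of genes, both directions together, within 1.5 times. By direction, a pseudocount of 5 turned the 4 matrix genes higher past the unadjusted rule for OE against KO at day 25 into 2. For day 30 against day 25 over all genotypes, a pseudocount of 5 or quantile normalization turned the 1 higher gene (COL9A3) into 0. With a mean value of at least 50, the 1 call for OE against WT became 0. The replicate block gave 0 calls for OE against KO at day 25, 1 at day 30 (COL9A1) and 0 for OE against WT, and the same 7 genes for OE against KO over both days. Whether the replicate numbers pair samples is unknown. Over 15 pairs of groups the correlations of same-numbered deviations ran from -0.214 to 0.262, with 1 over 0.1 (WT day 30 with OE day 30). With 2 libraries a group, such correlations cannot exclude a shared differentiation or batch. Library weights gave 0 calls for OE against KO at day 25, 0 over both days, 8 for OE against WT, and 3 genes instead of 8 past the unadjusted rule for KO against WT at day 30. With only the libraries compared, 0 genes were called for OE against KO at day 25, 0 over both days and 4 for OE against WT. The comparison of days uses all 12 libraries, so no such fit was made for it.

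With 1 library left out, calls ranged as follows. KO against WT gave 0 to 1 at day 25, 0 to 5 at day 30 and 0 to 7 over both days. OE against KO gave 0 to 5 at day 25, 0 to 11 at day 30 and 1 to 14 over both days. OE against WT gave 0 to 0, the day comparison 0 to 1 and the interaction 0 to 1. Counts past the unadjusted rule ranged from 8 to 14, 2 to 9 and 6 to 10 for KO against WT at day 25, day 30 and over both days, from 15 to 19, 5 to 21 and 10 to 16 for OE against KO, from 7 to 12 for OE against WT and from 1 to 5 for the days. DESeq2 was not run, since the values are not counts. Depth is unknown, and 2 libraries a group limit every call.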
